A study of Homo sapiens with 12 samples.

Results

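The type I interferon IFNB1, the type III interferons IFNL1, IFNL2 and IFNL3, and the 4 receptor chains through which these cytokines act (IFNAR1, IFNAR2, IFNLR1 and IL10RB) were followed through 12 RNA-sequencing libraries. The 8 genes were chosen by symbol from the 60609 genes of the deposited annotation, and all 8 were found. The libraries measure polyadenylated RNA of NS-SV-AC cells, a human salivary acinar line that is long established in culture. They form 6 groups of 2 replicates: cells given DMSO, 2-CM (2'-C-methyladenosine, a nucleoside analogue) or RES (resveratrol, a plant polyphenol), each transfected with poly I:C (a synthetic RNA duplex that mimics viral RNA) or with a control that the labels call depc. Cells received each compound at 20 (the labels' unit is read here as micromolar) 24 h ahead of the transfection and a second time during it, and DMSO was given in the same volume. Poly I:C was left for 14 h, and growth lasted 48 h. The DMSO groups are the vehicle control of both compounds, every group was transfected, and all libraries share 1 cell line. The labels do not say whether the replicates of a group came from separate cultures, so p-values measure the spread between these libraries, which may be technical.

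Type I and type III interferons are secreted when cytosolic sensors such as RIG-I and MDA5 bind double-stranded RNA and activate IRF and NF-kB transcription factors. IFN-beta binds a receptor of IFNAR1 and IFNAR2, while the lambda interferons bind a receptor of IFNLR1 and IL10RB, a chain shared with interleukin-10 family receptors. Both receptors signal through JAK kinases to a transcription factor complex that holds STAT2 and IRF9, and IFNLR1 is known to be largely limited to epithelial cells and some leukocytes.

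Values are TPM, a transcript abundance relative to all transcripts of the library. It is scaled for gene length, so that levels can be set side by side between genes, but it is not corrected for GC content. Coverage corresponded to between 31.2 and 49.4 M (1e6) estimated reads per library. The label was checked against marker genes. Of 13 salivary acinar markers, only SLC12A2 and BHLHA15 reached 1 TPM in any library, and AQP5, MUC7, PRB1, STATH, HTN1 and PIP were listed at 0 in all 12. Of 8 epithelial markers, KRT8 and KRT18 were abundant, KRT7 and EPCAM reached 2.16 and 1.23 TPM, CDH1 and KRT19 stayed at or under 0.596 and 0.243 TPM, and KRT5 and KRT14 were listed at 0 in all 12. KRT8 was 989 to 1958 TPM with depc and 630 to 1087 TPM with poly I:C, and KRT18 was 690 to 1571 TPM and 466 to 645 TPM. The summed level of the list was 1683 to 3532 TPM with depc and 1099 to 1733 TPM with poly I:C. Of 5 leukocyte markers, PTPRC, CD3E and MS4A1 were listed at 0 in all 12, while CD14 and CD68 were above 1 TPM in all 12, and the summed level was 9.92 to 20.5 TPM with depc and 8.72 to 22.1 TPM with poly I:C. Of 4 plasmacytoid dendritic markers, LILRA4 was listed at 0 in all 12 and only TCF4 reached 1 TPM, and their summed level was 0.763 to 4.36 TPM with depc and 1.14 to 7.55 TPM with poly I:C. Of 4 fibroblast markers, COL1A1, PDGFRB and DCN reached 1 TPM, COL1A2 was listed at 0 in 11 libraries, and the summed level was 59.2 to 114 TPM with depc and 28.3 to 65.9 TPM with poly I:C. COL1A1 and PDGFRB were lower in every poly I:C library than in every depc library, while DCN reached 6.19 TPM with depc and 18.0 TPM with poly I:C, with ranges that overlapped. None of 3 endothelial markers reached 1 TPM. The part of these genes in the results was not tested. Replicates of some groups stood apart along the GC content of genes. Across the 17185 genes tested, Spearman's rho between GC content and replicate 1 minus replicate 2 lay between -0.78 and -0.43 in 5 groups and was 0.77 in RES poly I:C. The poly I:C difference itself fell with GC content across genes in each compound, with a rho of -0.36 under DMSO, -0.80 under 2-CM and -0.62 under RES. The part of GC content in the results below was not tested beyond the corrected values given.

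The start regions of the ligand genes are shown first, because all 4 ligands were high in the same libraries. The sequences are from RefSeq (GRCh38.p14) and run from 250 bases before the annotated start to 50 bases from it, on the gene's strand. Capitals mark matches, on either strand, to 4 sets of letters. GAAANNGAA is part of the elements that IRF factors are known to bind, as is AANNGAAA, and matches to these can overlap. GGAANNNCC is a kappaB-type element, and TATAAA is the core of the box bound by TBP. The 8-letter AANNGAAA was added after the 9-letter form had been searched and had not matched the IFNB1 window.
IFNB1, chr9:21077893-21078192, minus strand: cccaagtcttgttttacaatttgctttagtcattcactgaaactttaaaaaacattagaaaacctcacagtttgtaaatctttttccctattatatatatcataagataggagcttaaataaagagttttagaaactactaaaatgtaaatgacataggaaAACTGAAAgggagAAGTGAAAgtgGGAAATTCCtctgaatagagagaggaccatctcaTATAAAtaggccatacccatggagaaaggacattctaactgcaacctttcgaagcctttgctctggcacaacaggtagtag
IFNL1, chr19:39296157-39296456, plus strand: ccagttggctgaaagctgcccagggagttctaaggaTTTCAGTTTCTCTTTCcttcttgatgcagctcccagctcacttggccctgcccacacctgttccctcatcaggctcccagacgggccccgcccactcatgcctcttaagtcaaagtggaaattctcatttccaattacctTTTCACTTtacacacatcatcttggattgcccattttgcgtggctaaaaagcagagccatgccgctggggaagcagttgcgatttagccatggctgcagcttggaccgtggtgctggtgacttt
IFNL2, chr19:39268146-39268445, plus strand: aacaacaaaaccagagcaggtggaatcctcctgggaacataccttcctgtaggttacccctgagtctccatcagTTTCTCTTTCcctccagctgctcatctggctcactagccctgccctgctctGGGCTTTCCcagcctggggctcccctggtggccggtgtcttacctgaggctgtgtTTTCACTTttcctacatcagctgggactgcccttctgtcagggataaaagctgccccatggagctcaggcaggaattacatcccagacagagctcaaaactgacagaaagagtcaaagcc
The first of 2 windows of IFNL3, chr19:39245201-39245500 on the minus strand, differed from that of IFNL2 at 1 of 300 bases (C31T, the IFNL2 base first, counted from 1 at the 5′ end). The IFNB1 window held 2 matches to AANNGAAA, at 89 and 76 bases before the start, then a match to GGAANNNCC at 65 bases before it and a TATAAA at 31. IFNL1 held 3 matches to AANNGAAA, of which the nearest to the start lay 74 bases before it, and 2 to GAAANNGAA. IFNL2 and the first window of IFNL3 each held 2 matches to AANNGAAA, 1 to GAAANNGAA and 1 to GGAANNNCC. The second window of IFNL3 held no match. Among 35116 promoters of the same length, AANNGAAA was in 22.8%, GAAANNGAA in 8.11%, GGAANNNCC in 20.1% and TATAAA in 11.5%. An AP-1-type TGANTCA, found in 7.71% of promoters, matched none of these windows. The windows of IFNAR1, IFNLR1 and IL10RB held no match to any of these letters. Promoters were matched for 7 of the 8 genes (not IFNAR2). A match is a description of letters and does not show binding.

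With poly I:C, RNA of all 4 interferons was present under every compound, and IFNL1 was the most abundant ligand in all 6 poly I:C libraries. With depc, IFNB1, IFNL2 and IFNL3 were listed at 0 in all 6 libraries, and IFNL1 did not exceed 0.589 TPM. The 4 ligands passed the filter of 1 TPM in 2 libraries only through poly I:C libraries (6 libraries for IFNL1, 5 for IFNB1, 4 for IFNL2 and 2 for IFNL3, the last all given 2-CM), so they had to differ and their calls are not support for the list as a whole. The housekeeping genes GAPDH, ACTB, TBP, HPRT1 and PPIA were above 0 in every library. No fold change is given against a group listed at 0. In bulk RNA, a change in the number of producing cells cannot be told apart from a change in RNA per cell.

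IFNB1 encodes IFN-beta, the type I interferon that most non-immune cells make first, from a gene with a single exon (chr9:21077104-21077942, minus strand, GRCh38). It was listed at 0 in each of the 6 depc libraries, where 3 reads would have given 0.105 to 0.130 TPM. With poly I:C, its level was 2.91 and 0.933 TPM in replicates 1 and 2 of DMSO, 4.33 and 4.06 TPM in 2-CM, and 1.46 and 3.32 TPM in RES. Every poly I:C library thus lay above every depc library, the 2-CM libraries were the highest, and the DMSO and RES ranges overlapped. These levels rested on 22.4 estimated reads in DMSO replicate 2, the fewest, and on up to 81.5 in the other libraries. Differences are in log2(TPM + 1), a scale on which changes of genes with low levels come out too small. The poly I:C difference was 2.38 ± 0.34 (SE) under 2-CM with an adjusted p of 0.0137 (limma over all genes). It was 1.46 ± 0.34 under DMSO (adjusted p = 0.0535) and 1.71 ± 0.34 under RES (adjusted p = 0.0908), and neither passed the threshold. The 2-CM call was lost when any 1 of the 4 2-CM libraries was left out (2.34 to 2.41). The DMSO value was 1.97 with replicate 2 of DMSO poly I:C left out and 0.951 with replicate 1 left out. The DMSO value became a call without RES poly I:C replicate 1 or 2 (adjusted p = 0.0496 and 0.0473). It also became a call after upper-quartile (1.60, adjusted p = 0.0343) and median-of-ratios scaling (1.59, adjusted p = 0.0255). With a pseudocount of 0.1 in place of 1, the DMSO and RES values of IFNB1 were 4.14 (adjusted p = 0.0137) and 4.53 (adjusted p = 0.0211). Correction for GC content brought both past the threshold, at 1.35 (adjusted p = 0.0226) and 1.45 (adjusted p = 0.0350). Of 23 alternatives run, IFNB1 passed the threshold in 7 under DMSO and in only 3 under RES. The authors' deposited table gives IFNB1 an adjusted p of 0.000559 under DMSO and 0.000904 under RES.

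**Figure D1:**
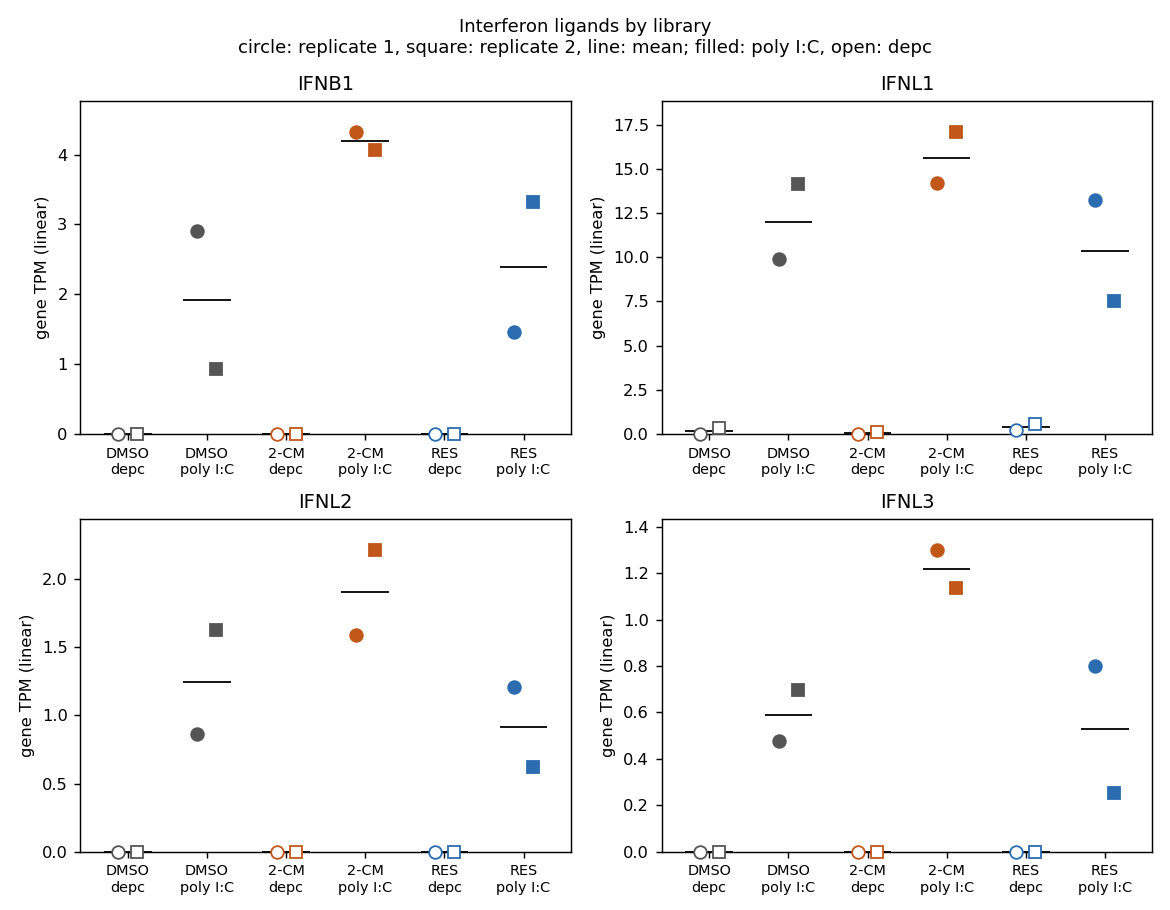
Gene TPM (linear axis) of the 4 interferon ligands in each of the 12 libraries, by group, with circles for replicate 1, squares for replicate 2 and a line at the group mean. IFNB1, IFNL2 and IFNL3 sit at 0 in all 6 depc libraries, and IFNL1 reaches 7.49 to 17.1 TPM with poly I:C.

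IFNL1 encodes IFN-lambda 1, also called interleukin-29 (chr19:39296407-39298673, plus strand). With depc it was 0 and 0.342 TPM in DMSO, 0 and 0.0936 TPM in 2-CM, and 0.206 and 0.589 TPM in RES, which corresponds to at most 12.9 estimated reads. With poly I:C it was 9.89 and 14.1 TPM in DMSO, 14.2 and 17.1 TPM in 2-CM, and 13.2 and 7.49 TPM in RES. All 6 poly I:C libraries were above all 6 depc libraries, both 2-CM libraries were above both DMSO libraries, and RES and DMSO overlapped. The poly I:C difference was 3.47 ± 0.32 under DMSO (adjusted p = 0.00172), 3.99 ± 0.32 under 2-CM (adjusted p = 0.000671) and 2.99 ± 0.32 under RES (adjusted p = 0.00748). It ranked 18, 31 and 24 from the top among the 17185 genes in these comparisons. A fit of only the 4 libraries compared lost the call under DMSO (adjusted p = 0.174) and RES (adjusted p = 0.520). The RES call was also lost without RES depc replicate 1 (2.79) or RES poly I:C replicate 1 (2.62). The authors' deposited table gives IFNL1 an adjusted p of 0.156 under DMSO, 1.71e-11 under 2-CM and 2.24e-06 under RES.

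IFNL2 and IFNL3 encode IFN-lambda 2 and 3, from neighbouring and nearly identical genes (chr19:39268514-39270092, plus strand, and chr19:39243553-39245129, minus strand). The transcript of IFNL2 and the IFNL3 transcript with the higher TPM (of 2) agreed at 98.0% of 734 aligned bases, against 81.5% and 81.0% between IFNL1 and each of them. Of the 637 windows of 101 bases in IFNL2, 31 (4.87%) also occurred in IFNL3, so the split of reads between this pair is uncertain. With poly I:C, IFNL2 was 0.867 and 1.63 TPM in DMSO, 1.59 and 2.22 TPM in 2-CM, and 1.21 and 0.622 TPM in RES. IFNL3 was 0.477 and 0.698 TPM in DMSO, 1.30 and 1.14 TPM in 2-CM, and 0.802 and 0.255 TPM in RES. Both were listed at 0 in every depc library, and in each poly I:C library IFNL3 was the lowest of the 4 ligands. IFNL2 rose under DMSO by 1.15 ± 0.22 (adjusted p = 0.0335) and under 2-CM by 1.53 ± 0.22 (adjusted p = 0.0136), and differed by 0.92 ± 0.22 under RES (adjusted p = 0.136). The DMSO call of IFNL2 was lost when any DMSO or 2-CM library was left out, with values of 0.901 to 1.39, and with FPKM, estimated reads as CPM, upper-quartile and median-of-ratios scaling. IFNL3 rose under 2-CM by 1.15 ± 0.18 (adjusted p = 0.0183), with 0.66 ± 0.18 under DMSO (adjusted p = 0.0855) and 0.59 ± 0.18 under RES (adjusted p = 0.212). Only the 2 2-CM poly I:C libraries brought IFNL3 past the filter. Its higher level there was thus fixed by the filter, and its larger difference under 2-CM is not a result. Without any 1 of the 4 2-CM libraries, the 2-CM calls of IFNL2 (1.37 to 1.69) and IFNL3 (1.10 to 1.20) were lost. The SE of IFNB1, IFNL2 and IFNL3 pools the 6 groups, of which the 3 depc groups have no spread because every value is 0.

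The mix of ligands was dominated by IFNL1. It made up 83.1 to 89.5% of the summed TPM of the 3 lambda interferons in the 6 poly I:C libraries. Its ratio to IFNB1 within a library, which does not depend on library scaling, was 3.39 and 15.2 in DMSO, 3.27 and 4.21 in 2-CM, and 9.05 and 2.26 in RES. The ranges of the 3 compounds overlapped, and the replicates of DMSO and of RES lay further apart than those of 2-CM. This ratio is not corrected for GC content, which is 57.5% for IFNL1 and 41.7% for IFNB1. The order was IFNL1, IFNB1, IFNL2 and IFNL3 in 5 of the 6 libraries, and in DMSO replicate 2 IFNL2 stood above IFNB1. Of 18 other interferon genes, none passed the filter. The 12 IFNA genes other than IFNA21 and the type II interferon IFNG were listed at 0 in all 12 libraries, IFNA21 reached 0.150 TPM in 1 library, and the highest of the 18 was IFNE at 0.436 TPM.

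All 4 receptor chains were expressed in every library. IFNAR1 rose with poly I:C under 2-CM, and no other difference between poly I:C and depc passed the test for a receptor chain. By limma this was 1 of 4 chains under 2-CM, where 49.3% of all genes were called, and 0 of 4 under DMSO and RES, where 4.08% and 0.442% were called (likewise 0 of 4 at an unadjusted p under 0.05 in both). These counts are too small to set the receptor chains apart from all genes. In all 12 libraries the order by gene TPM was IL10RB, IFNAR2, IFNAR1 and IFNLR1, so that by this sum 1 chain of each receptor was the scarcer. IFNAR2 was 1.15 to 3.38 times IFNAR1, and IL10RB was 4.79 to 13.4 times IFNLR1. The IFNAR2 sum is mostly transcripts of a short protein, as given below. By the assembler's estimates, the transcript of the 515-residue IFNAR2 form was below that of the 557-residue IFNAR1 form in all 12 libraries. Their means were 1.90 and 6.30 TPM.

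IFNAR1, the chain of the type I receptor that binds TYK2 (chr21:33324429-33359864, plus strand), was 8.45 and 5.18 TPM in DMSO depc and 8.96 and 2.88 TPM in DMSO poly I:C. In 2-CM it was 3.93 and 3.55 TPM with depc and 19.9 and 16.8 TPM with poly I:C. In RES it was 13.4 and 4.62 TPM with depc and 6.04 and 15.7 TPM with poly I:C. The 2-CM depc libraries were lower than both DMSO depc libraries, as 33.3% of all genes were, the 2-CM poly I:C libraries were the highest of all 12, and within DMSO and RES the groups overlapped. By group mean, 2-CM poly I:C (18.4 ± 2.21 TPM, SD, n = 2) stood first and 2-CM depc (3.74 ± 0.267) last. The other 4 groups, with means of 5.92 to 10.9 TPM and SDs of 2.31 to 6.82, did not differ from their neighbours beyond their spread. The poly I:C difference under 2-CM was 2.03 ± 0.60 (adjusted p = 0.0314), while the median of all genes in that comparison was 0.61. It was -0.30 ± 0.60 under DMSO (adjusted p = 0.867) and 0.27 ± 0.60 under RES (adjusted p = 0.866). The 2-CM call was lost without any 1 of the 4 2-CM libraries (1.91 to 2.14, adjusted p of 0.0819 to 0.153) and with no filter on low genes (adjusted p = 0.0797). The difference passed at a smaller 1.27 after median-of-ratios scaling (adjusted p = 0.0326) and at 1.36 after GC correction (adjusted p = 0.0314). In the authors' deposited table IFNAR1 has a log2 fold change of 1.42 under 2-CM (adjusted p = 5.67e-11) and of -0.16 under DMSO.

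IFNAR2, the chain that binds JAK1 and binds interferon with high affinity (chr21:33229901-33265675, plus strand), was 13.4 and 7.73 TPM in DMSO depc and 16.7 and 6.50 TPM in DMSO poly I:C. In 2-CM it was 13.3 and 7.19 TPM with depc and 23.1 and 24.2 TPM with poly I:C. In RES it was 20.4 and 6.75 TPM with depc and 10.5 and 18.0 TPM with poly I:C. Only under 2-CM were both poly I:C libraries above both depc libraries, as they were for 62.6% of all genes in that comparison. The difference was 1.19 ± 0.58 under 2-CM (adjusted p = 0.110, against a median of 0.61 over all genes), 0.036 ± 0.58 under DMSO (adjusted p = 0.988) and 0.20 ± 0.58 under RES (adjusted p = 0.896). The 2-CM value was 0.39 after median-of-ratios scaling and is 0.355 in the authors' deposited table (adjusted p = 0.236), while a fit of only the 4 libraries compared called it (adjusted p = 0.0122). Genes that share exon bases with IFNAR2 were low. IL10RB-DT, on the opposite strand over 39.1% of its exon bases, stayed at or under 0.417 TPM, and AP000295.1, on the same strand over 44.2% of them, at or under 0.390 TPM. The file headers name no strand option, so reads of these overlaps cannot be assigned with certainty.

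Most IFNAR2 RNA was assigned to transcripts of a short protein. A pair of transcripts that encode 331 residues held 69.2 to 90.0% of its TPM in the 12 libraries. The transcript for the 515-residue form, which carries the long intracellular tail through which the receptor is known to signal, held 4.52 to 27.1%. Its share was 8.32 and 19.0% in DMSO depc, 16.2 and 17.7% in DMSO poly I:C, 5.51 and 20.1% in 2-CM depc, and 20.5 and 7.99% in 2-CM poly I:C. In RES it was 4.52 and 27.1% with depc, and 11.6 and 20.0% with poly I:C. The range of each poly I:C group overlapped that of its depc group, and the RES depc replicates alone spanned the whole range of the 12 libraries. The mean difference between poly I:C and depc was 1.57 percentage points (exact permutation within compound, two-sided, p = 0.741, n = 2 per group, smallest possible p = 0.00926). The same exact permutation test gave p = 0.407 for the 557-residue form of IFNAR1 (49.2 to 77.1% of its TPM), 0.519 for the 520-residue form of IFNLR1 and 0.343 for the 325-residue form of IL10RB. The 4 exact permutation p-values were 0.691 to 0.741 after adjustment over the family. Shares of transcripts from short reads are estimates by the assembler and have no count behind them.

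**Figure D2:**
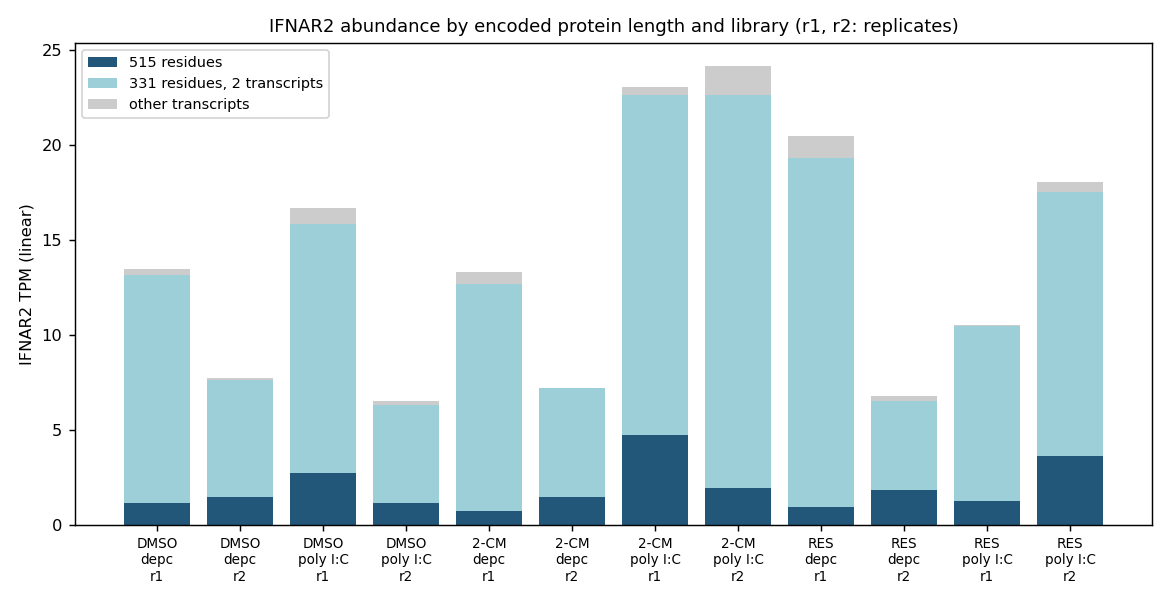
IFNAR2 TPM (linear axis, bars from 0) in each library, divided by the length of the encoded protein: 515 residues, 331 residues from 2 transcripts, and all other transcripts. The 331-residue part is the largest in all 12 libraries, at 69.2 to 90.0% of the gene.

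IFNLR1, the chain specific to lambda interferons (chr1:24154168-24187959, minus strand), was the lowest of the receptor chains, and its replicates differed by at most 0.13 on the log2(TPM + 1) scale. It was 2.23 and 1.95 TPM in DMSO depc, 1.83 and 2.06 TPM in DMSO poly I:C, 2.43 and 2.52 TPM in 2-CM depc, and 3.17 and 3.45 TPM in 2-CM poly I:C. In RES it was 3.41 and 3.61 TPM with depc and 2.80 and 3.15 TPM with poly I:C. The poly I:C libraries were above depc under 2-CM (as for 62.6% of all genes), below it under RES (as for 24.1%) and overlapped it under DMSO. The differences were 0.31 ± 0.19 under 2-CM (adjusted p = 0.184), -0.18 ± 0.19 under RES (adjusted p = 0.727) and -0.071 ± 0.19 under DMSO (adjusted p = 0.909). The sign under 2-CM turned to -0.32 after median-of-ratios scaling, and in the authors' deposited table it is -0.464 (adjusted p = 0.179). After GC correction all 3 values were positive, at 1.046 under 2-CM (adjusted p = 0.0224, a call), 0.098 under RES and 0.15 under DMSO. Both RES groups had IFNLR1 above the DMSO group of the same transfection. Against DMSO, RES gave 0.54 ± 0.19 with depc (adjusted p = 0.205) and 0.43 ± 0.19 with poly I:C (adjusted p = 0.369), where 25.7 and 28.3% of all genes likewise had both RES libraries above both DMSO libraries.

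IL10RB, the shared chain (chr21:33266367-33310187, plus strand), was the most abundant of the 8 genes in all 12 libraries. It was 20.7 and 14.2 TPM in DMSO depc, 24.5 and 20.3 TPM in DMSO poly I:C, 19.2 and 14.4 TPM in 2-CM depc, and 31.8 and 32.6 TPM in 2-CM poly I:C. In RES it was 39.1 and 17.3 TPM with depc and 30.0 and 36.3 TPM with poly I:C. Only under 2-CM were both poly I:C libraries above both depc libraries, as they were for 62.6% of all genes in that comparison. The difference was 0.91 ± 0.36 under 2-CM (adjusted p = 0.0607, against a median of 0.61 over all genes), 0.36 ± 0.36 under DMSO (adjusted p = 0.692) and 0.33 ± 0.36 under RES (adjusted p = 0.744). The 2-CM value was 0.095 after median-of-ratios scaling, and in the authors' deposited table it is 0.101 (adjusted p = 0.767). It became a call in a fit of only the 4 libraries compared (adjusted p = 0.00648) and without RES depc replicate 1 or 2 (adjusted p = 0.0185 and 0.0187).

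**Figure D3:**
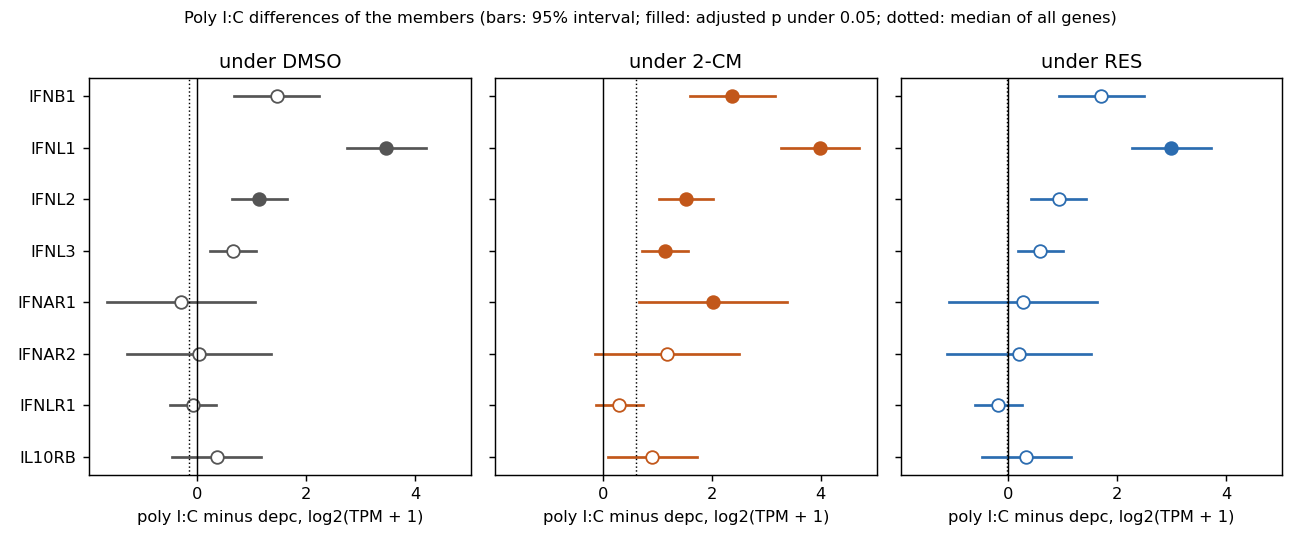
Poly I:C minus depc on the log2(TPM + 1) scale for the 8 genes under DMSO, 2-CM and RES, as points with 95% intervals, filled where the adjusted p is under 0.05, with a dotted line at the median of all genes tested. Filled points number 2 under DMSO, 5 under 2-CM and 1 under RES, and under 2-CM the median of all genes is itself 0.61.

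Across the 8 genes, 2 were called under DMSO (IFNL1 and IFNL2), where 4.08% of all genes were called in either direction. Under 2-CM 5 were called (the 4 ligands and IFNAR1), where 49.3% of all genes were called and 37.5% were called higher. Under RES IFNL1 alone was called, where 0.442% of all genes were. The 3 comparisons have separate libraries. The 4 ligands were above depc without overlap in all 3, a pattern that 3.14% of all genes had, and the ligands had to differ for the reason given above. None of the 4 receptor chains had it.

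No difference of a compound from DMSO in the response of a ligand or a receptor chain passed the test, and 2-CM was not tested against RES. The response to poly I:C under 2-CM minus the response under DMSO was called by limma for 0 of the 8 genes, against 0.0116% of all genes. An unadjusted p under 0.05 was seen for 1 of the 8 (IFNAR1) and for 5097 of all 17185 genes. This difference of response was 0.92 for IFNB1 (95% interval -0.19 to 2.02, adjusted p = 0.211), 0.52 for IFNL1 (-0.51 to 1.54, adjusted p = 0.422) and 2.32 for IFNAR1 (0.40 to 4.25, adjusted p = 0.161), where the median of all genes was 0.68. For RES, 0 of the 8 genes and 0.0% of all genes were called, and none of the 8 had an unadjusted p under 0.05. The RES difference was 0.25 for IFNB1 (-0.86 to 1.35), -0.48 for IFNL1 (-1.50 to 0.54) and 0.57 for IFNAR1 (-1.36 to 2.49). Each of these intervals leaves room for a difference of more than 1 on the log2 scale. Those of IFNB1 rest on a spread pooled over all groups, and its depc groups have none because every value is 0. A fit of estimated reads as CPM called 0 of the 8 genes in either comparison.

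Set directly against DMSO, both 2-CM poly I:C libraries were above both DMSO poly I:C libraries for 6 of the 7 genes other than IFNL3 (IFNL2 overlapped), as they were for 70.4% of all genes. IFNL3 passed the filter only through the 2 2-CM poly I:C libraries, so it had to be higher there and is not counted. The difference was 0.92 for IFNB1 (95% interval 0.14 to 1.70, adjusted p = 0.125), 1.63 for IFNAR1 (0.27 to 2.995, adjusted p = 0.123) and 0.37 for IFNL1 (-0.36 to 1.09, adjusted p = 0.383), beside a median of 0.59 over all genes. By limma 0 of the 8 genes were called, against 0.105% of all genes. An unadjusted p under 0.05 was seen for 3 of the 7 genes other than IFNL3 (IFNB1, IFNAR1 and IFNLR1). The same held for 5884 of all 17185 genes in this comparison. For IFNB1, the interval and the p rest on a spread pooled over 6 groups. Of these, the 3 depc groups are not compared here and have no spread, since every value is 0. After median-of-ratios scaling the difference of IFNL1 was -0.36 and that of IL10RB -0.25. With RES and poly I:C, IFNLR1 and IL10RB lay above DMSO without overlap, as 28.3% of all genes did, and the other 6 genes overlapped it. RES gave 0 calls of 8 with poly I:C and 0 of 5 with depc, against 0.157% and 1.03% of all genes. IFNLR1 had an unadjusted p under 0.05 in both, as did 2296 of all 17185 genes with poly I:C and 2524 with depc. With depc, 2-CM gave 0 calls of 5, against 0.0349% of all genes, and none of the 5 had an unadjusted p under 0.05.

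The replicate differences of the 8 genes were set beside GC content, and their signs followed it in some groups and not in others. IFNB1, IFNAR1, IL10RB and IFNAR2 have GC contents of 41.7, 43.2, 43.9 and 48.3% over their exons, and IFNLR1, IFNL1, IFNL2 and IFNL3 have 54.8, 57.5, 59.8 and 60.1%. In DMSO poly I:C, the 4 genes of lower GC content were higher in replicate 1 (IFNB1 by 1.02, IFNAR1 by 1.36 on the log2 scale) and the 4 of higher GC content were higher in replicate 2 (IFNL1 by 0.47, written as -0.47 for replicate 1 minus 2). In RES poly I:C all 8 had the opposite sign, with -0.81 for IFNB1, -1.25 for IFNAR1 and 0.74 for IFNL1. The ratio of IFNL1 to IFNB1 was highest in DMSO replicate 2 and in RES replicate 1. In 2-CM poly I:C the replicate differences stayed between -0.31 and 0.23 and did not follow GC content by sign, with -0.065 for IFNAR2, -0.036 for IL10RB and 0.11 for IFNL3. IFNB1 and IFNAR1 were nonetheless at 0.074 and 0.23, and IFNL1 and IFNL2 at -0.25 and -0.31. Over all genes tested, rho with GC content was -0.43 in this group. With depc, IFNAR1, IFNAR2 and IL10RB were higher in replicate 1 and IFNL1 in replicate 2 under all 3 compounds, while IFNLR1 had 0.13 in DMSO and negative values in 2-CM and RES.

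**Figure D4:**
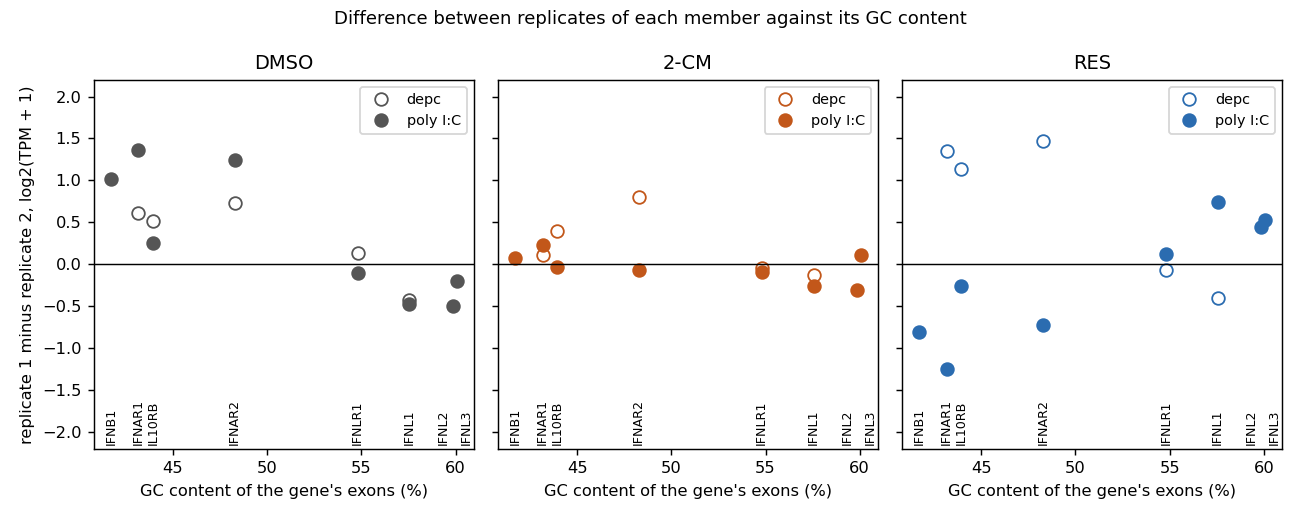
Replicate 1 minus replicate 2 on the log2(TPM + 1) scale (vertical axis) against the GC content of each gene's exons in percent (horizontal axis), with open points for depc and filled points for poly I:C, left out where both replicates are at 0. Filled points fall with GC content in DMSO, from 1.02 for IFNB1 to -0.20 for IFNL3, and rise with it in RES, from -0.81 to 0.52.

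The wider pathway was read through gene lists chosen with earlier results of these data known. Of 15 genes that sense double-stranded RNA or carry the signal to the interferon promoters, 4 rose under DMSO and 0 fell (4.08% of all genes were called), with a median difference of 0.16 against -0.14 over all genes. The 4 were DDX58, which encodes RIG-I (3.34, adjusted p = 0.0365), the transcription factor IRF7 (2.64, adjusted p = 0.00829), IFIH1, which encodes MDA5 (2.26, adjusted p = 0.0380), and DHX58, which encodes LGP2 (2.13, adjusted p = 0.00416). Under 2-CM 10 of the 15 rose and 2 fell (median 1.25 against 0.61 over all genes, of which 37.5% were called higher). Under RES limma called 0 of 15, with 6 at an unadjusted p under 0.05, as were 2409 of all 17185 genes. Of 5 genes of receptor signalling, 2 rose and 1 fell under DMSO. IRF9, the DNA-binding subunit of the ISGF3 complex, rose by 4.29 (adjusted p = 0.000137), its partner STAT2 rose by 1.07 (adjusted p = 0.0224), and the kinase TYK2 fell by 0.90 (adjusted p = 0.0414). Under 2-CM 3 of the 5 rose and 1 fell, and under RES 1 rose, where 49.3% and 0.442% of all genes were called. The list's median difference was 1.07, 1.77 and 0.78 under DMSO, 2-CM and RES, against -0.14, 0.61 and -0.028 over all genes.

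Of 7 genes of negative feedback, 3 rose under DMSO, 5 under 2-CM and 2 under RES, and 0 fell, where 4.08%, 49.3% and 0.442% of all genes were called and 37.5% were called higher under 2-CM. The list's median difference was 1.14, 1.58 and 0.41, beside the same medians of all genes. Under DMSO the called genes were ISG15 (3.44, adjusted p = 0.00144), the protease USP18, which removes ISG15 and blocks IFNAR2 signalling (3.25, adjusted p = 0.00154), and SOCS3, an inhibitor of JAK signalling (1.24, adjusted p = 0.0371). Of 20 interferon-induced targets, 19 rose under DMSO, 20 under 2-CM and 17 under RES, and 0 fell. Of the 20, MX2, OAS2, IFI44, IFI44L, RSAD2, CXCL10 and CXCL11 had fewer than 2 depc libraries at 1 TPM. They needed poly I:C libraries to pass the filter, so their direction was largely fixed. Without these 7, the counts were 13, 13 and 11 of 13. The median difference of all 20 was 4.12, 5.18 and 3.53, against -0.14, 0.61 and -0.028 over all genes, and that of the 13 was 4.16, 5.07 and 3.52. Under DMSO the largest were IFI27 (6.38), OAS2 (6.24) and OAS1 (5.43), antiviral or interferon-marker genes, and the smallest called were HERC5 (2.72), OAS3 (2.45) and BST2 (1.19). Of 8 other chains of the class II cytokine receptor family, 5 were tested, and IL10RA, IL22RA2 and IL20RA were not above the filter. Limma called 0 of the 5 under DMSO and under RES, also with 0 at an unadjusted p under 0.05, and called 2 higher under 2-CM, the coagulation receptor F3 and the interferon-gamma receptor chain IFNGR1. Their values were 1.27 (adjusted p = 0.0326) and 2.38 (adjusted p = 0.0340), named after they were seen. The share of all genes called higher in that comparison was 37.5%, and the median of the 5 was 0.61, the same as over all genes. The median was 0.94 without IL20RB, which had fewer than 2 depc libraries at 1 TPM. Its highest value in the 12 libraries was nonetheless 1.16 TPM, in RES depc replicate 1.

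The genes most like each member over the 12 libraries were found by Pearson correlation of log2(TPM + 1) among 12339 tested protein-coding genes with a mean of 1 TPM or more with poly I:C. These are descriptions, since the points share libraries, depth, transfection and GC-related spread. IFNB1 was nearest to CXCL10 (0.989), IFI44L (0.987), IFI44 (0.983), RSAD2 (0.982) and DDX58 (0.981), whose GC contents were 35.1 to 42.9%. IFNL1 was nearest to IFITM1 (0.991), IRF9 (0.991), OAS1 (0.990), OASL (0.988) and IFI27 (0.987), with GC contents of 47.4 to 55.6%. IFNL2 was nearest to TRIM21 (0.975) and IFNL1 (0.969), and IFNL3 to IFNL2 (0.972) and SLC25A28 (0.962). IFNAR1 was nearest to ZHX1, PLEKHA1, ZBTB11, CCNT1 and ERCC4 (0.995 to 0.996), with GC contents of 38.4 to 40.6%. IFNAR2 was nearest to ZNF266 (0.985), IFNLR1 to LIF (0.968) and IL10RB to MOAP1 (0.987). Among the members themselves, IFNAR1 and IFNAR2 had a correlation of 0.912, and IFNL1 and IFNB1 of 0.905.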

How the data were processed

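Polyadenylated RNA of 12 NS-SV-AC libraries was read in pairs of 101 bases. The authors assembled reads with StringTie 2.0.4 on GENCODE 32 with no strand option, per the file headers, and the deposited files give coverage, FPKM and TPM per transcript. The submitters' processing notes name HISAT2 2.1.0, hg38 and DESeq2. For each compound, a table deposited by the authors on poly I:C and depc holds, per the file headers, a mean count score, a log2 fold change and p-values with and without adjustment.

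Transcript TPM was summed to genes (Python 3.11.15). In limma 3.58.1 (R 4.3.3), 6 group means were fitted to log2(TPM + 1) of 17185 genes with at least 1 TPM in 2 libraries, with trended moderation and 6 residual degrees of freedom. Calls had a Benjamini-Hochberg adjusted p under 0.05 over all genes. Counts per library were not used here; estimated reads (coverage times length over read length) as CPM served only as an alternative, on the log2(CPM + 1) scale. The fit was run on simulated data with noise independent between genes and libraries. Those data lack the GC-related differences between replicates seen here. Sequences are from RefSeq GRCh38.p14. All 8 members were named, and genes of each list were named by their largest and smallest called difference under DMSO. Members and lists were chosen with earlier results of these data known. The alternatives were FPKM, other scalings, filters and pseudocounts, GC correction, the replicate block, smaller fits, each library left out, and IFNL2 and IFNL3 summed. Added after seeing the data were the CPM values, a fit per transfection, the 8-letter motif and the test of transcript shares. List counts without genes that needed poly I:C libraries to pass the filter were also added then.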

Additional observations from a re-analysis of the deposited data

Results flagged for a closer look

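For IFNLR1, the receptor chain specific to lambda interferons, the libraries with poly I:C lay on opposite sides of depc under 2-CM and RES. Under 2-CM both poly I:C libraries were above both depc libraries, with a difference of 0.31 on the log2(TPM + 1) scale (adjusted p = 0.184), as 62.6% of all genes were. Under RES both were below, with a difference of -0.18 (adjusted p = 0.727), as 24.1% of all genes were. Neither passed the test, the difference between 2-CM and RES was not tested, and median-of-ratios scaling turned the 2-CM value to -0.32. After GC correction the opposition was gone, with 1.046 under 2-CM (adjusted p = 0.0224 by limma) and 0.098 under RES.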

How the results depend on the processing

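With poly I:C, IFNL3 rested on 4.6 to 21.4 estimated reads, IFNL2 on 11.5 to 34.4, IFNB1 on 22.4 to 81.5 and IFNL1 on 146 to 314, and each receptor chain on 224 or more. IFNL1 with poly I:C kept its direction under every alternative run, between 2.44 and 6.81, and its call in 23 of 24 alternatives under DMSO, 24 of 24 under 2-CM and 21 of 24 under RES. IFNAR1 under 2-CM was called in 19 of 24 alternatives, and lost its call without any 1 of the 4 2-CM libraries. In all such counts, alternatives that left out a library outside the comparison could change the spread but not the difference. A minimum of 5 TPM left no value for IFNB1, IFNL2, IFNL3 and IFNLR1. The sum of IFNL2 and IFNL3 was entered as IFNL2 and left no value for IFNL3. The planned voom fit with TMM scaling was not run, because the deposited values are not counts. Where a value changed, the cause was not tested.

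The count of members called with poly I:C under DMSO was 2, and became 1 with FPKM, with estimated reads as CPM, with a minimum of 5 TPM and with the replicate block, 4 with a pseudocount of 0.1 and with GC correction and the block, 3 with GC correction alone, and 0 with a fit of only the libraries compared. With upper-quartile and median-of-ratios scaling it stayed at 2, with IFNB1 called and IFNL2 not. Under 2-CM it was 5, and became 2 with a minimum of 5 TPM, 4 with no filter and with IFNL2 and IFNL3 summed, 6 with the block, with GC correction and with both, and 7 with a fit of only the libraries compared. Under RES it was 1, and became 2 with median-of-ratios scaling and with GC correction, 3 with a pseudocount of 0.1, and 0 with a fit of only the libraries compared. For 2-CM against DMSO with poly I:C it was 0, and 1 with GC correction and the block (IFNL3, which passed the filter only through the 2-CM poly I:C libraries). Leaving out 1 library gave counts of 1 to 3 under DMSO, 1 to 6 under 2-CM and 0 to 1 under RES.

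The labels do not say that replicate numbers pair the groups. Each library's deviation from its group mean was correlated over all genes tested with that of the same-numbered library of another group. These deviations correlated at 0.15 to 0.76 in all 10 pairs among 5 groups, and at -0.80 to -0.31 in the 5 pairs with RES poly I:C. The numbers were therefore not used as pairs over all 6 groups, and the block fitted over these mixes both signs. With the replicate block, the calls moved from 2 to 1 under DMSO (IFNL2 lost), from 5 to 6 under 2-CM (IL10RB gained), and stayed at 1 under RES and at 0 in the other 6 comparisons.

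With FPKM in place of TPM, the sign turned in poly I:C under DMSO for IFNLR1 (0.042). With upper-quartile scaling, the sign turned in poly I:C under DMSO for IFNLR1 (0.021), in poly I:C under 2-CM for IFNLR1 (-0.16), in the 2-CM difference of response for IFNL1 (-0.11), IFNL2 (-0.050), IFNLR1 (-0.18) and IL10RB (-0.18), in 2-CM against DMSO with poly I:C for IFNL1 (-0.28), IFNL2 (-0.050) and IL10RB (-0.16) and in 2-CM against DMSO with depc for IFNAR2 (0.010) and IL10RB (0.023). With median-of-ratios scaling, the sign turned in poly I:C under DMSO for IFNLR1 (0.049), in poly I:C under 2-CM for IFNLR1 (-0.32), in the 2-CM difference of response for IFNL1 (-0.20), IFNL2 (-0.11), IFNLR1 (-0.37) and IL10RB (-0.42), in 2-CM against DMSO with poly I:C for IFNL1 (-0.36), IFNL2 (-0.11), IFNLR1 (-0.020) and IL10RB (-0.25) and in 2-CM against DMSO with depc for IFNAR2 (0.16) and IL10RB (0.18). With GC correction, the sign turned in poly I:C under DMSO for IFNLR1 (0.15), in poly I:C under RES for IFNLR1 (0.098) and in 2-CM against DMSO with depc for IFNLR1 (-0.083) and IL10RB (0.15). With GC correction and the replicate block together, the sign turned in poly I:C under DMSO for IFNLR1 (0.15), in poly I:C under RES for IFNLR1 (0.098) and in 2-CM against DMSO with depc for IFNLR1 (-0.083) and IL10RB (0.15).

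Leaving out 1 library at a time turned the sign of 42 values that were not called. In poly I:C under DMSO the values ran for IFNAR1 from -0.98 to 0.38 and for IFNAR2 from -0.58 to 0.66. In poly I:C under RES the values ran for IFNAR1 from -0.41 to 0.95, for IFNAR2 from -0.53 to 0.93 and for IL10RB from -0.24 to 0.89. In 2-CM against DMSO with depc the values ran for IFNL1 from -0.36 to 0.065, for IFNAR2 from -0.45 to 0.35 and for IL10RB from -0.30 to 0.21. In the RES difference of response the values ran for IFNB1 from -0.26 to 0.75, for IFNL2 from -0.47 to 0.019, for IFNL3 from -0.34 to 0.19, for IFNAR1 from -0.11 to 1.25, for IFNAR2 from -0.57 to 0.90 and for IL10RB from -0.60 to 0.53. In RES against DMSO with poly I:C the values ran for IFNB1 from -0.26 to 0.75, for IFNL1 from -0.60 to 0.15, for IFNL2 from -0.47 to 0.019, for IFNL3 from -0.34 to 0.19 and for IFNAR2 from -0.26 to 0.98. In RES against DMSO with depc the values ran for IFNAR1 from -0.44 to 0.91 and for IFNAR2 from -0.54 to 0.93.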
